A study of Mus musculus with 10 samples.

Results

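Ribosomal protein and hnRNP genes are a list of 50 constitutively expressed genes, taken from 20665 autosomal coding genes placed on the mouse mm10 build. The list named 23 proteins of the large ribosomal subunit, 18 of the small subunit and 9 heterogeneous nuclear ribonucleoproteins (hnRNPs), and it was set by name, with no measured value. The tissue was mouse cochlea at E13.5 (embryonic day). ATAC-seq, which reads open chromatin from the insertions of a transposase, was made from SoxC double knockout cochlea (2 libraries) and wildtype cochlea (3 libraries). The titles of these libraries call the tissue the whole organ, while their cell type label gives duct epithelium, so the mix of cells in it is not settled. Sox4 CUT&RUN, which releases the DNA bound by an antibody's target, was made in 3 replicates from GFP-positive progenitors sorted from p27kip1-GFP mice, labelled wildtype. The labels called the knockout conditional and did not name the deleted SoxC genes. They gave the Pax2cre SoxC fl/fl strain for a single-cell RNA library and no driver for the ATAC tissue. How many embryos a library held was not stated, so the p-values below measure the spread between these libraries.

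Ribosomal proteins and ribosomal RNA build the large and small subunits of the ribosome, and cells keep the supply of the many proteins in balance. Their genes are expressed in nearly all cells, from short promoters that lie at the start site and often lack a TATA box. Their messenger RNAs begin with a run of pyrimidines, the TOP element, through which growth signals control their translation. The hnRNPs coat nascent transcripts in the nucleus and act in splicing, export and decay.

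Promoter sequences for 42 of the 50 members were matched by gene in RefSeq (GRCm38.p6). The members not matched were Rpl3, Rpl7, Rpl8, Rpl30, Rpl32, Rps14, Rps20 and Rps29. The first set shows 3 promoters with a Sox4 peak at the start in all 3 replicates, each from 250 bases before the RefSeq start through its first 30 transcribed bases. Capitals mark CCAAT (NFY), GGGCGG (Sp1) and TCTCGCGA (BANP) on either strand, and CCGGAAG (ETS), which none of the 3 held. The Rps19 window lay at chr7:24884342-24884621 on the forward strand, the Hnrnpa1 window at chr15:103240147-103240426 on the forward strand and the Hnrnpc window at chr14:52103992-52104271 on the reverse strand.
Rps19: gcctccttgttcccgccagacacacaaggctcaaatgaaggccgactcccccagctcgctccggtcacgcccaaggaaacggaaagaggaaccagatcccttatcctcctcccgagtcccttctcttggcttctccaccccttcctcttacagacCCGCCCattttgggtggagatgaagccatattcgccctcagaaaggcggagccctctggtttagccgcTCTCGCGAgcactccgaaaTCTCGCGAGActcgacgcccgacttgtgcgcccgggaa
Hnrnpa1: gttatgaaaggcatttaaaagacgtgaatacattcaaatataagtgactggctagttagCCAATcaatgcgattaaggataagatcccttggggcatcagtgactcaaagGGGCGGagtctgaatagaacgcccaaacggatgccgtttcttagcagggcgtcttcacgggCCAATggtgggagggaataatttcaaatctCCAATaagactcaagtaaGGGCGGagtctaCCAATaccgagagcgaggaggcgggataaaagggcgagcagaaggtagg
Hnrnpc: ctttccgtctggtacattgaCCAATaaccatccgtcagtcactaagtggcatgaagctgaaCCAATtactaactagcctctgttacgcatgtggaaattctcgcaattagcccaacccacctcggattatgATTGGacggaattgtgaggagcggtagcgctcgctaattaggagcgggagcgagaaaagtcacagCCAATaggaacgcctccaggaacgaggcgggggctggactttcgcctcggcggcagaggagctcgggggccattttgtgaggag

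The second set shows the pyrimidine run at the start of 4 ribosomal protein genes, from 30 bases before the start through the first 30 transcribed bases. Rpl15 is shown as the member of the strongest wildtype gene-end peak, and Rps6, Rpl28 and Rps27 were chosen after their sequences were seen. Capitals mark the run. The windows were chr14:18270957-18271016 (reverse strand), chr4:86857338-86857397 (reverse strand), chr7:4792935-4792994 (forward strand) and chr3:90213619-90213678 (reverse strand).
Rpl15: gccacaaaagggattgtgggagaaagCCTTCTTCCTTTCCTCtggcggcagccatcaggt
Rps6: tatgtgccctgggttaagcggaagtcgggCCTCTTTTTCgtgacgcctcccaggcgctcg
Rpl28: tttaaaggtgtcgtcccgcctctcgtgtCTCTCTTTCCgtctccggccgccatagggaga
Rps27: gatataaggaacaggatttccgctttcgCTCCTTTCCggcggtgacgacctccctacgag

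A TOP run was counted as at least 6 pyrimidines that began with C, on the coding strand, in the window from 5 bases before to 12 bases from the start. It stood in 15 of the 33 ribosomal protein promoters (45.5%) and in 0 of the 9 hnRNP promoters, beside 10.9% of all 16457 promoters. The ETS letters CCGGAAG, searched on both strands like the motifs that follow, stood in 14 of 42 members (33.3%), beside 12.3% of all promoters. TCTCGCGA stood in 5 members (11.9%), namely Rpl26, Rpl35, Rps6, Rps19 and Rps28, beside 1.48% of all promoters. GGGCGG stood in 21 members (50%, all promoters 47.3%) and CCAAT in 15 (35.7%, all promoters 39.1%). TATAAA stood in 4 members (9.52%, all promoters 13.54%), and the YY1 letters AAGATGGCG in 1, Rps27 (2.38%, all promoters 1.92%). The Sox letters AACAAAG and AACAATG stood in 0 of 42 members each, beside 4.83% and 3.34% of all promoters. These windows hold 250 bases before and 50 bases after the start, and a match is a description of the letters. They do not reach every Sox4 summit described below. The count of 0 for the Sox letters is thus not read as their absence at the Sox4 peaks.

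The first question was how open these gene ends were, as a measure at genes in constant use. A gene's value in a library was that of the peak with the highest -log10 p within 1 kb of either end of the gene. A peak stood there in all 5 ATAC libraries for 48 of 50 members, beside 65.0% of all autosomal coding genes. The exceptions were Hnrnpf, whose protein binds G-rich RNA, and Rps2, which lines the messenger RNA entry of the small subunit. Rps2 had no gene-end peak in any ATAC library, and its RefSeq start lies 1942 bp inside its gene model. Taking the RefSeq starts as well gave all 50 members a peak in every ATAC library. The peak's summit lay within 250 bp of a RefSeq start in 35 of 41 members in each knockout library and in 34 of 40 in each wildtype library. The median distance of summit to start was 58 and 54 bp in the knockout and 58, 65 and 69.5 bp in the wildtype libraries of replicates 1 to 3. For 16 members the gene-end peak also lay within 1 kb of the end of another coding gene, such as Cbx5 at Hnrnpa1, Cbx3 at Hnrnpa2b1, Rpgrip1 at Hnrnpc and Card6 at Rpl37. How often this holds over all genes is not given here.

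The members' gene-end peaks were stronger than the typical peak of a gene end in every library. Their median -log10 p was 669 and 456 in the knockout and 150, 72.5 and 44.5 in the wildtype libraries, beside medians over all genes with a peak of 424 and 256 in the knockout and 101, 48.6 and 35.3 in the wildtype libraries. The ratio of the members' median to that of all genes was 1.58 and 1.78 in the knockout, against 1.49, 1.49 and 1.26 in the wildtype libraries. The fold enrichment over local background, the other strength measure deposited with each peak, had a members' median of 14.9 and 15.9 in the knockout and 16.6, 12.1 and 10.6 in the wildtype libraries. The same ratio by fold was 1.22 and 1.24 in the knockout, against 1.20, 1.13 and 1.14 in the wildtype libraries. Peak widths were close to those of all genes, with members' medians of 1054 and 897 bp in the knockout and 702, 562 and 589 bp in the wildtype libraries, beside medians over all genes of 1060 and 900.5 bp and of 669, 585 and 610 bp. The -log10 p values of all genes were several times higher in the knockout lists, so libraries were compared by rank. Ranks ran from 1, the strongest, over the 16249 genes with a gene-end peak in at least 1 ATAC library, among them 49 members.

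Among the members, the strongest wildtype gene ends were those of Rpl15, Rpl37, Rps29, Rpl30, Hnrnpc and Rpl34. Rpl15, a large subunit protein, ranked 381.5 and 253.5 in the knockout and 70.5, 188.5 and 247.5 in the wildtype libraries (tied genes share a mean rank, here with a neighbour at the same peak). Rpl37, also of the large subunit, ranked 1278.5 and 297.5 in the knockout and 164.5, 184.5 and 244.5 in the wildtype libraries. Rps29, a zinc-binding protein of the small subunit, ranked 1601 and 525 in the knockout and 544, 411 and 471 in the wildtype libraries. In Rpl15 and Rpl37 both knockout libraries ranked lower than all wildtype libraries, and in Rps29 the groups overlapped. Hnrnpc, which binds uridine tracts in nascent transcripts, was among the strongest gene ends of the knockout lists by -log10 p. It ranked 96.5 and 56.5 in the knockout and 1009.5, 455.5 and 644.5 in the wildtype libraries. By fold its gene ranks were 4673.5 and 3598.5 in the knockout and 5068.5, 1258.5 and 1160.5 in the wildtype libraries, which overlapped. Rpl30 ranked 964 and 1642 in the knockout and 618, 657 and 632 in the wildtype libraries. Rpl34 overlapped, with ranks of 1522 and 873 in the knockout and 340, 944 and 1388 in the wildtype libraries.

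The weakest wildtype gene ends among the members tested were those of Hnrnpf, Rpl19, Rpl22, Hnrnpl, Rpl8 and Rpl38. Rpl19, which forms a bridge between the subunits, ranked 12914.5 and 12293.5 in the knockout and 12290.5, 13351 and 12903.5 in the wildtype libraries, and the groups overlapped. Its nearest RefSeq start lies 4707 bp inside the gene model. Hnrnpl, which binds CA repeats, ranked 10225 and 9821 in the knockout and 10419, 10944 and 11116 in the wildtype libraries. Every RefSeq start of 6 members lay over 1 kb inside the gene model, Hnrnpl and Rpl19 among them. With the RefSeq starts added, Hnrnpl ranked 4915 and 4033 in the knockout and 4159, 5360 and 3373 in the wildtype libraries. Its low rank thus describes the annotated ends. Rpl19 stayed low in that setting, at 10004 and 10116 in the knockout and 12353, 11546 and 12484 in the wildtype libraries. Rpl38, whose loss in mice alters the translation of Hox messenger RNAs, ranked 8081 and 6922 in the knockout and 9942, 9291.5 and 10078 in the wildtype libraries. Rpl8, beside the catalytic centre of the ribosome, ranked 6661 and 6192 in the knockout and 10726, 9243 and 9516 in the wildtype libraries.

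**Figure D1:**
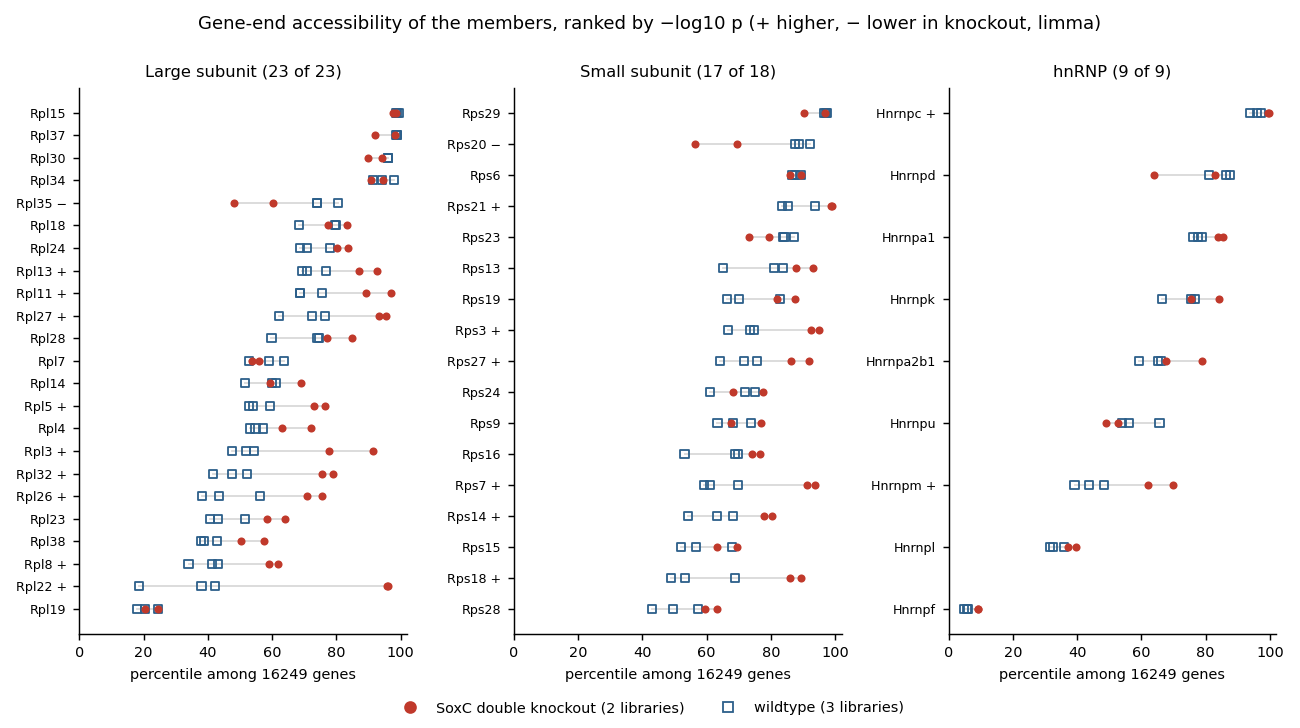
Percentile of each member's gene end among the genes tested, ranked by -log10 p, in 2 SoxC double knockout libraries (filled circles) and 3 wildtype libraries (open squares), by class and in order of the wildtype mean. A plus or minus after the name marks a member called higher or lower in the knockout, and Rps2 had no gene-end peak in these libraries. Of the 40 ribosomal protein genes tested, 23 have both knockout points to the right of all wildtype points, while Rpl15, Rpl37, Rpl30, Rps20, Rps23 and Rpl35 have them to the left.

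The second question was whether these gene ends changed place in the knockout. Ranked by -log10 p, 17 members rose and 2 fell of 49 tested. To rise means to move towards the strong end of the ranks in the knockout. The members that rose were 34.7% of those tested, beside 11.8% of all genes, and those that fell were 4.08%, beside 12.1%. The test was limma on normal scores of the ranks, in which a difference of 1 is about 1 standard deviation of all genes, with Benjamini-Hochberg adjustment over all genes and a threshold of 0.05. The median difference of the members, knockout minus wildtype, was 0.31, beside -0.01 over all genes tested, and 37 of 49 were above 0. The median member stood at percentile 78.8 and 77.8 in the knockout, against 68.9, 69.6 and 62.1 in the wildtype libraries. The groups did not overlap in 29 members that ranked higher in the knockout and 7 that ranked lower, where all genes gave 28.5% and 30.7%. The 37 and the 29 include Hnrnpf, which had a gene-end peak in the knockout libraries alone and so could only rank higher there. Within a group the percentile of a member spanned a median of 4.81 points between the knockout libraries and 9.13 points over the wildtype libraries. Without knockout replicate 1 the calls fell to 4 higher and 0 lower (all genes 1.50% and 1.70%), and without wildtype replicate 2 to 10 higher and 1 lower (all genes 5.43% and 6.21%). Of the called members described below with their ranks, Rps3, Rpl27, Rps21, Rpl32, Rps20, Rpl35 and Hnrnpm were not called without knockout replicate 1. Their differences without it were 0.87, 0.96, 1.05, 0.76, -0.75, -0.45 and 0.68, with limma adjusted p from 0.0502 to 0.223. The 30 members not called in either direction had differences from -0.50 to 0.58.

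Of the large subunit, 9 of 23 members rose and 1 fell. Rpl27 ranked 732 and 1073 in the knockout and 4504.5, 3804 and 6159.5 in the wildtype libraries, and rose by 1.06 (SE 0.17, limma adjusted p 0.00475). Rpl32 ranked 3443 and 3994 in the knockout and 7771, 8515 and 9506 in the wildtype libraries, and rose by 0.82 (SE 0.15, limma adjusted p 0.00679). Both had all knockout libraries ahead of all wildtype libraries. Rpl3, which lies near the catalytic centre, and Rpl11, which binds the Mdm2 protein when ribosome assembly fails, rose by 1.04 and 1.01. Rpl26, Rpl13, Rpl8 and Rpl5, another Mdm2-binding protein, rose by 0.72, 0.69, 0.53 and 0.53. Rpl35, which sits at the exit tunnel, ranked 8424 and 6430 in the knockout and 4223, 4208 and 3159 in the wildtype libraries, and fell by 0.61 (SE 0.16, limma adjusted p 0.0242). This call was also lost without wildtype replicate 2 or 3 (limma adjusted p 0.0609 and 0.0562) and by fold (0.0826). The next lower, Rpl37, did not pass (difference -0.50, limma adjusted p 0.0927), though it did without knockout replicate 2 (-0.84, limma adjusted p 0.0196).

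The remaining large subunit member that rose, Rpl22, had the highest difference of the members, and it compared different peaks. Rpl22, an RNA-binding protein needed by developing T cells in mice, ranked 677 and 616 in the knockout and 10067, 9398 and 13217 in the wildtype libraries, a difference of 2.22 (SE 0.21, limma adjusted p 0.000827). RefSeq gives 2 starts, of which one is the outer end of the gene model and the other lies 1290 bp inside it. The knockout peaks over the inner start reached 367 and 339 bp upstream of it, into the window within 1 kb of the outer end, while the wildtype peaks over the same start reached 188, 163 and 153 bp upstream and stayed outside. With the RefSeq starts added, the ranks were 712 and 635 in the knockout and 1478, 2527 and 2935 in the wildtype libraries. The difference was then 0.64 (SE 0.17, limma adjusted p 0.018). The fold of the peak over the inner start was 18.8 and 22.8 in the knockout and 24.0, 19.5 and 17.2 in the wildtype libraries, which overlapped.

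Of the small subunit, 6 of 17 tested members rose and 1 fell. Rps7, one of the proteins mutated in human Diamond-Blackfan anaemia, ranked 1049 and 1421 in the knockout and 6620, 4938 and 6336 in the wildtype libraries, and rose by 1.09 (SE 0.15, limma adjusted p 0.0033). Rps3, at the messenger RNA entry, ranked 815 and 1213 in the knockout and 4308, 4099 and 5430 in the wildtype libraries, and rose by 0.97 (SE 0.15, limma adjusted p 0.0046). Rps21 ranked 168.5 and 206.5 in the knockout and 1028.5, 2705.5 and 2372.5 in the wildtype libraries, and rose by 1.09 (SE 0.19, limma adjusted p 0.00559). None of these 3 had overlapping groups, and the Rps21 peak is shared with Cables2. Rps18, Rps27 and Rps14 rose by 0.98, 0.70 and 0.50. Rps20, in the head of the small subunit, ranked 7095 and 4952 in the knockout and 1815, 1271 and 2032 in the wildtype libraries, and fell by 0.93 (SE 0.16, limma adjusted p 0.00643). Rps6, the target of S6 kinase, ranked 2307 and 1723 in the knockout and 2014, 1724 and 2205 in the wildtype libraries, with overlapping groups and a difference of -0.01 (limma adjusted p 0.973).

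Of the hnRNPs, 2 of 9 rose and 0 fell, while 7 lay above 0. One of these 7, Hnrnpf, had no gene-end peak in wildtype, so its difference could only lie above 0. Hnrnpc rose by 0.88 (SE 0.16, limma adjusted p 0.00726) on the -log10 p ranks given above. By fold its difference turned to -0.46 and did not pass (limma adjusted p 0.279). Hnrnpm, a splicing regulator that binds GU-rich RNA, ranked 6162 and 4923 in the knockout and 9160, 8405 and 9880 in the wildtype libraries, and rose by 0.57 (SE 0.15, limma adjusted p 0.0246). The Hnrnpm call was lost without knockout replicate 2 (difference 0.47, limma adjusted p 0.143), without wildtype replicate 2 or 3 (0.0505 and 0.0552), and by fold (0.39, limma adjusted p 0.18), beside its loss without knockout replicate 1. Hnrnpd, which binds AU-rich elements of unstable messenger RNAs, did not pass (difference -0.39, limma adjusted p 0.162). Hnrnpf was listed at its gene ends in the knockout libraries alone, at ranks of 14761 and 14766, on peaks with a -log10 p of 12.3 and 5.72. With the RefSeq starts added, Hnrnpf had a peak in all libraries, at ranks of 6321.5 and 5748.5 in the knockout and 3255.5, 2372.5 and 4337.5 in the wildtype libraries, and it fell by 0.50 (SE 0.17, limma adjusted p 0.0469). In that setting, which was chosen after the data were seen, Hnrnpu, a nuclear scaffold protein, also fell by 0.43 (limma adjusted p 0.0485).

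The rise was not seen when the same gene ends were ranked by fold enrichment. By fold, 3 members rose and 4 fell of 49 (all genes 9.05% and 6.33%), and the median difference was -0.11, beside -0.09 over all genes. The median member stood at fold percentile 68.4 and 69.7 in the knockout, against 68.8, 63.3 and 63.9 in the wildtype libraries. The groups did not overlap in 12 members that ranked higher by fold, Hnrnpf again among them, and 18 that ranked lower (all genes 22.2% and 33.3%). The members that rose by fold were Rpl22, Rps7 and Rps19, and those that fell were Rpl15, Rps20, Rps29 and Rpl30. At Rpl22 the wildtype gene-end peak was again not the one over the inner start, so its rise by fold compared different peaks. The highest fold at the ends of Rps7 was 21.6 and 24.7 in the knockout and 19.3, 17.3 and 12.7 in the wildtype libraries, a difference of 0.80 in score (SE 0.22, limma adjusted p 0.0405). At Rps19 the highest fold was 19.8 and 17.7 in the knockout and 15.1, 10.7 and 9.38 in the wildtype libraries. In both knockout libraries and in wildtype replicate 1 this was not the fold of the Rps19 start peak. The start peak had a fold of 12.2 in both knockout libraries and 14.99, 10.7 and 9.38 in the wildtype libraries, which overlapped. The rise of Rps19 by fold thus also compared different peaks. At Rpl15 the fold was 18.3 and 20.2 in the knockout and 25.5, 23.6 and 20.5 in the wildtype libraries, and its score fell by 1.04 (SE 0.19, limma adjusted p 0.00966). Rps20 fell under both orders, with a fold of 12.2 and 13.9 in the knockout and 20.7, 17.8 and 14.0 in the wildtype libraries, and Rps7 rose under both.

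**Figure D2:**
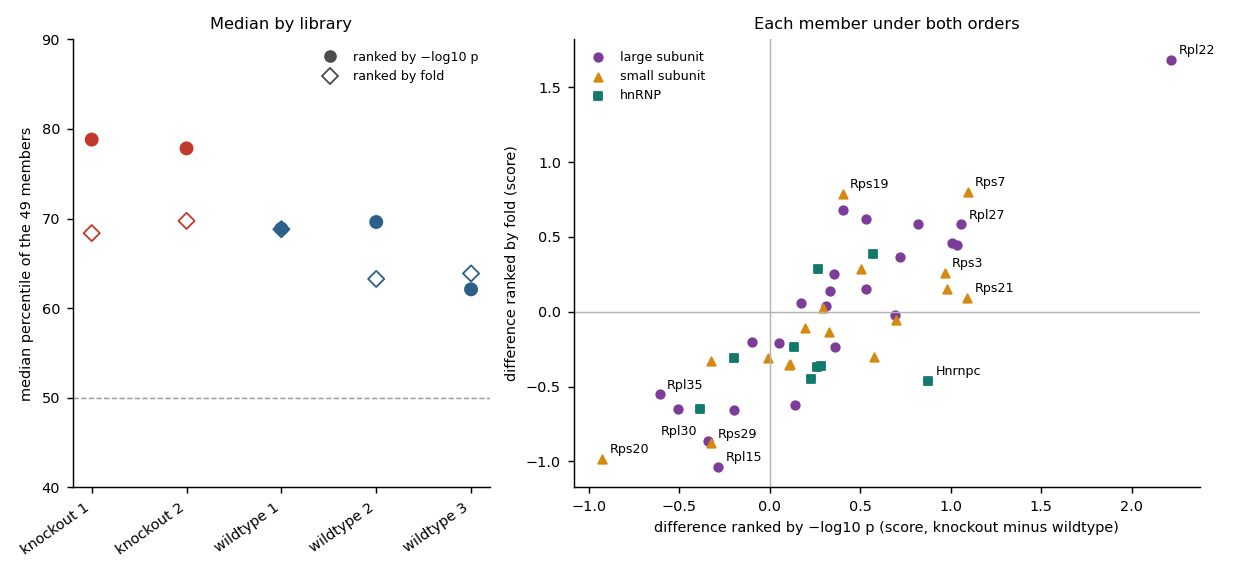
Left, median percentile of the 49 members in each ATAC library (knockout, then wildtype), ranked by -log10 p (filled circles) and by fold (open diamonds), with the middle of all genes dashed. Right, each member's score difference, knockout minus wildtype, by -log10 p (x axis) and by fold (y axis). By -log10 p the knockout medians of 78.8 and 77.8 stand above all wildtype medians, and by fold the knockout medians of 68.4 and 69.7 include the wildtype median of 68.8 between them.

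The -log10 p of a peak grows with the reads of a library as well as with the fold, and read totals were not in the peak lists, so depth was unknown. The part of depth in the rise by -log10 p was not tested, and list settings that differed between the groups cannot be told apart from genotype. Members that rose had a median fold of 17.0 and 17.8 in the knockout and 16.4, 12.2 and 11.1 in the wildtype libraries. Members not called had 12.3 and 14.8 in the knockout and 17.1, 12.0 and 10.5 in the wildtype libraries. In bulk tissue, fewer open cells and less accessibility per cell cannot be told apart.

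The other genes of the same pathways were read in the same fit. Of 37 other ribosomal protein genes tested, 11 rose and 1 fell by -log10 p rank (limma), with a median difference of 0.41, so 29.7% rose and 2.70% fell beside 11.8% and 12.1% of all genes. By fold rank 2 of the 37 rose and 2 fell (all genes 9.05% and 6.33%), with a median of -0.03. Of 15 other hnRNP genes 2 rose and 1 fell by -log10 p rank (13.3% and 6.67%), with a median of -0.01. Of 20 translation factor genes 3 rose and 5 fell (15% and 25%), with a median of 0.18. The shares that rose in these last lists were near that of all genes. The labelled tissue was checked with markers. The 9 cochlear epithelium markers used (Epcam, Cdh1, Pax2, Gata3, Sox2, Jag1, Fbxo2, Oc90 and Eya1) had a gene-end peak in all 5 libraries, with a median percentile of 46.0 and 59.5 in the knockout and 57.4, 66.8 and 63.7 in the wildtype libraries. Of these, 0 rose and 1 fell. Ranked by -log10 p, the gene ends of markers of other cell types had lower median percentiles in every library. By fold the otic mesenchyme median was above the epithelium median in knockout replicate 1 (27.6 against 26.5) and wildtype replicate 3 (41.5 against 40.9). In the other libraries it was below. Of the 5 otic mesenchyme markers placed, 4 had a peak in all 5 libraries. By -log10 p their median percentiles were 23.8 and 23.4 in the knockout and 29.3, 28.9 and 41.0 in the wildtype libraries, and 0 rose and 1 fell. Of the 5 neuron and glia markers, 4 had a peak in all 5 libraries. They had 36.7 and 36.0 in the knockout and 35.1, 24.9 and 24.6 in the wildtype libraries, and 1 rose and 1 fell. Of 5 blood and endothelium markers 1 had a peak in all 5 libraries, and the 4 tested had 15.8 and 14.6 in the knockout and 8.26, 12.8 and 17.3 in the wildtype libraries, with 0 called. Their part in the members' ranks was not tested.

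The third question was how many of these gene ends carried a Sox4 peak in wildtype progenitors. A Sox4 peak lay within 1 kb of an end of 27 members in replicate 1 (54.0%, exact 95% binomial interval 39.3 to 68.2), 20 in replicate 2 (40%, 26.4 to 54.8) and 20 in replicate 3 (40%, the same interval). The shares of all genes were 33.0%, 18.5% and 15.6%. The members were also set beside 9111 genes of like wildtype ATAC rank, of which 41.5%, 25.0% and 23.5% had a peak. This range of ranks held 39 of the members, while the members' shares are over all 50. In 2 or more replicates 21 members had a peak (42.0%, 28.2 to 56.8), beside 14.5% of all genes and 22.6% of the genes of like rank. In all 3 replicates 7 members had one (14.0%, 5.82 to 26.7), beside 4.0% and 6.95%. The remaining members had a peak in 1 replicate (18 members) or in 0 (11 members). The intervals cover counting error only, and no library with a control antibody was used here.

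The Sox4 lists differed in length, so the shares were repeated on the 20000 strongest peaks of each. Then 8, 13 and 18 members (16.0%, 26% and 36.0%) had a peak in replicates 1 to 3, beside 9.45%, 7.64% and 12.1% of all genes and 14.1%, 11.4% and 19% of the genes of like rank. The members' share in replicate 1 was thus close to that of the genes of like rank. In 2 or more replicates 8 members had one (16.0%), beside 5.24% of all genes and 9.22% of the genes of like rank, whose share lies inside the members' interval of 7.17 to 29.1. In all 3 replicates 5 had one (10.0%, 3.33 to 21.8), beside 1.79% and 3.35%. The share of the genes of like rank also lay inside the members' interval in replicate 1 and in all 3 replicates. This held on the whole lists and on the strongest peaks. It lay below the interval in replicates 2 and 3 on both, and in 2 or more replicates on the whole lists. These intervals are over all 50 members, and none was taken over the 39 of like rank, so the comparison is not matched for rank. Rpl15, Rpl37, Rps29, Rpl30 and Hnrnpc ranked above the range, and each had a peak in replicates 2 and 3 of the whole lists. Of the members below the range or not tested, Rpl8 and Rps2 had a peak in replicate 3, and Rpl19, Rpl22, Hnrnpf and Hnrnpl had none. The members had 74 gene-end peaks in the whole lists, of which 50 overlapped a peak of all 3 wildtype ATAC libraries. The like share over all genes is not given here, nor is it for the overlaps between replicates that follow. Neither count is read as particular to the members. Of the 21 members with peaks in 2 or more replicates, 14 had peaks that overlapped between replicates, and 5 had peaks that overlapped in all 3, namely Hnrnpa1, Rps19, Hnrnpa2b1, Rpl37 and Hnrnpc. For Hnrnpc the overlapping peak of replicate 2 was not its strongest at the gene ends.

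**Figure D3:**
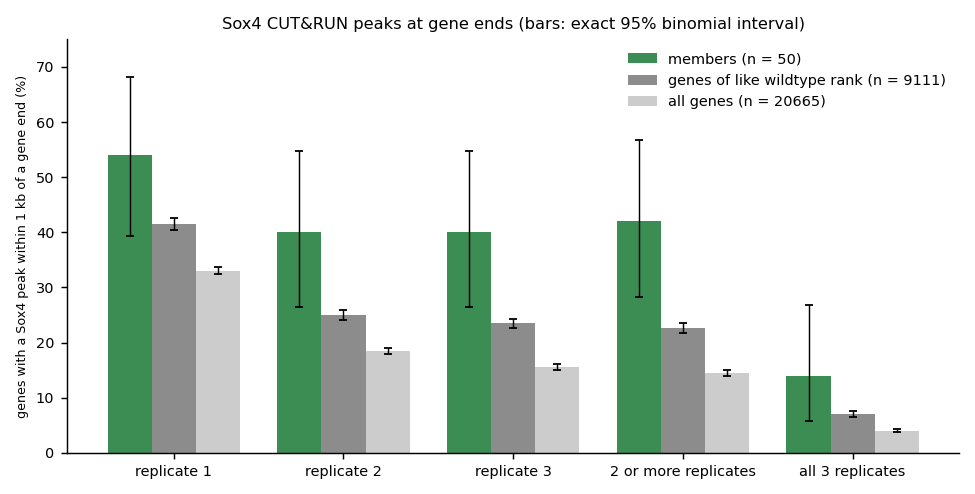
Share of genes with a Sox4 CUT&RUN peak within 1 kb of a gene end (y axis, percent) in each replicate, in 2 or more and in all 3, for the 50 members, genes of like wildtype ATAC rank and all autosomal coding genes. Lines are exact 95% binomial intervals, and the members' bars, at 54.0%, 40%, 40%, 42.0% and 14.0%, are the tallest in every group.

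Hnrnpa1, a splicing repressor, had a Sox4 peak among the 20 strongest of every list. It ranked 20, 14 and 9 in the lists of replicates 1 to 3, with a fold of 11.7, 10.5 and 9.47. The summits lay 267, 222 and 224 bp upstream of the RefSeq start, the first outside the sequence printed above and the others within its first bases. The gene's ATAC rank was 2373.5 and 2641.5 in the knockout and 3632.5, 3897.5 and 3429.5 in the wildtype libraries, which did not overlap and did not pass (difference 0.26, limma adjusted p 0.179). Rps19, the protein most often mutated in human Diamond-Blackfan anaemia, followed with list ranks of 98, 50 and 61 and a fold of 9.03, 8.42 and 7.57. Its summits lay 252, 313 and 270 bp upstream of the start, just beyond the printed sequence, and no other coding gene end lay within 1 kb of its ATAC peak. Its ATAC rank of 2028 and 2926 in the knockout overlapped the wildtype ranks of 2802, 4867 and 5490 (difference 0.40, limma adjusted p 0.132). It passed without wildtype replicate 1 (0.56, limma adjusted p 0.0454).

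The other members with Sox4 peaks in all 3 replicates had weaker or less even peaks. Hnrnpa2b1, which carries messenger RNAs along the cytoskeleton, had list ranks of 12283, 942 and 1769, and Rpl37 had 9968, 3318 and 3291. Hnrnpc had 107, 3431 and 18962, and its strongest peak in replicate 2 lay at the far end of the gene, with one at the start ranked 20480. Its summits at the start lay 227, 284 and 175 bp upstream. Rpl7 had 37019, 35554 and 3410, and Hnrnpm had 55165, 35554 and 6114, in replicate 1 at the far end of the gene. In the Sox4 lists peaks of equal -log10 p share the best rank of their tie, as Rpl7 and Hnrnpm do at 35554. Of these 7 members, 6 share their ATAC peak with the end of another coding gene, Rps19 being the exception. The like share over all genes is not given here, so this count is not read as particular to these members. Hnrnpc and Hnrnpm rose by -log10 p rank, and the other 5 were not called.

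**Figure D4:**
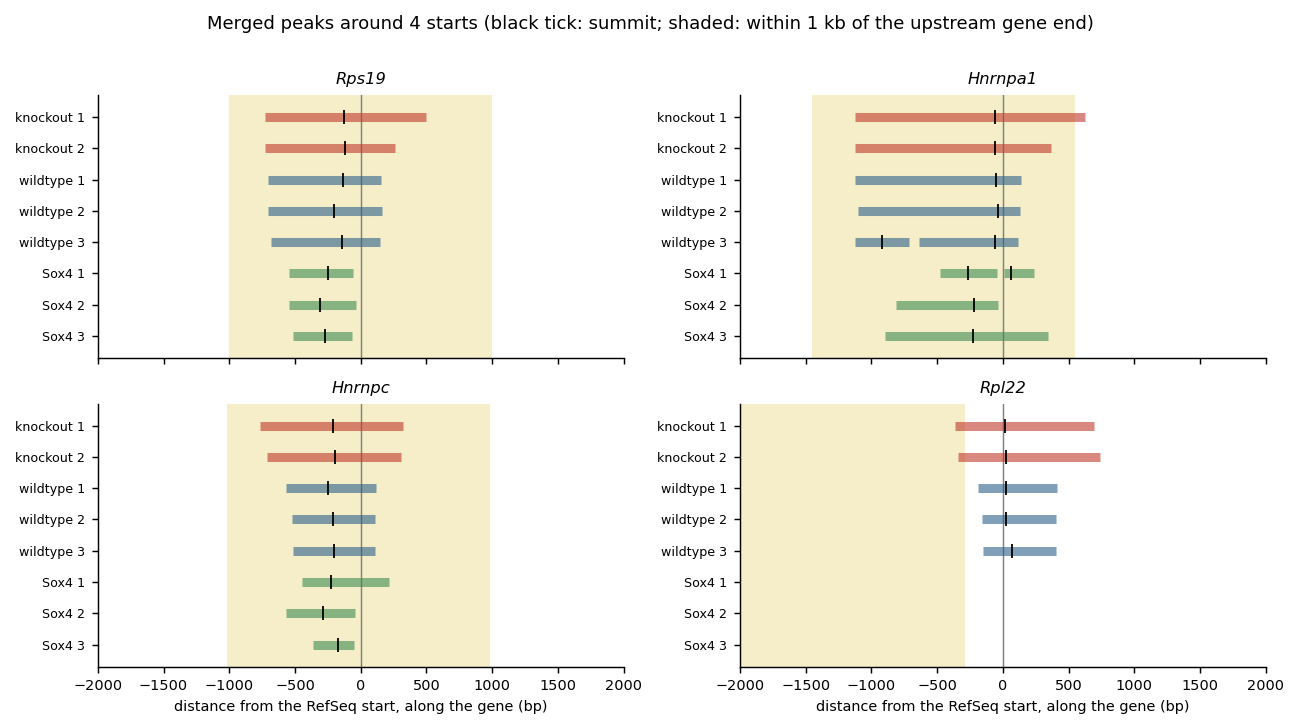
Merged peaks of Rps19, Hnrnpa1, Hnrnpc and Rpl22 by distance from the RefSeq start, for Rpl22 the inner one (bp, upstream negative), for knockout ATAC, wildtype ATAC and Sox4 libraries from top to bottom, with summits as ticks and the area within 1 kb of the upstream gene end shaded. The strongest Sox4 summits of Rps19, Hnrnpa1 and Hnrnpc in this area lie upstream of the start inside the ATAC peaks, and at Rpl22 the knockout peaks alone reach the shaded area.

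The 14 members with Sox4 peaks in 2 replicates were all ribosomal protein genes, a class that makes up 41 of the 50 members. Their peaks ranked below those of Hnrnpa1 and Rps19. The strongest by mean rank were Rpl30, at 11927 and 725 in replicates 2 and 3, and Rpl15, at 1052 and 18447. The Rpl15 peaks lay at the far end of the gene, with summits 2639 and 2296 bp inside the start, and not at the promoter printed above. Rpl3 had 20480 and 3253 in replicates 2 and 3, Rps7 20480 and 6350, and Rps29 10917 and 27700. Rps13 had 12525 and 11927 in replicates 1 and 2, Rpl34 28783 and 6002, and Rps28 1463 and 35554. Peaks of Rps13, Rps7 and Rps28 did not overlap between replicates. Hnrnpk, which binds C-rich RNA, had a peak in replicate 3 alone, at rank 203, and is named after its value was seen.

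**Figure D5:**
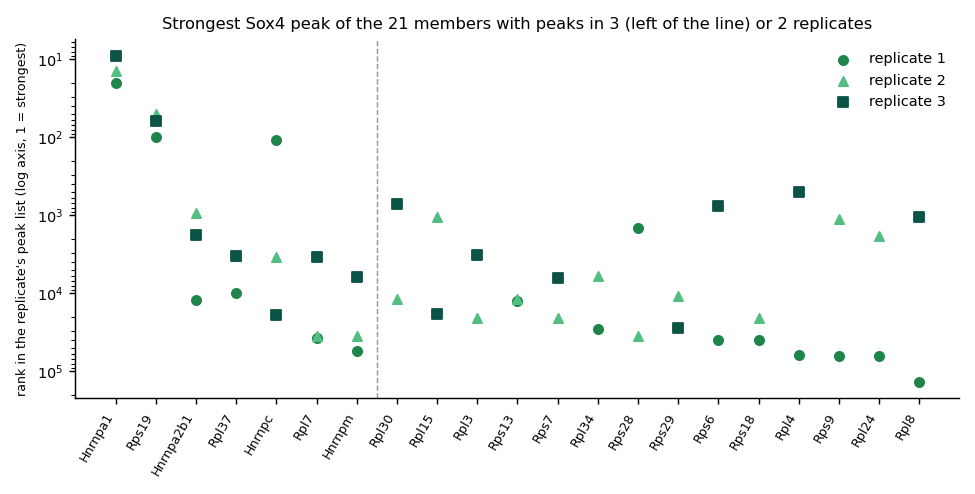
Rank of the strongest Sox4 peak at the ends of the 21 members with peaks in 3 or 2 replicates (y axis, log scale, strongest on top), 1 symbol per replicate, with members in order of mean rank on the x axis. Hnrnpa1 and Rps19 stand within the first 100 peaks of every replicate, and the strongest peaks of the other members rank from 107 to 136200.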

How the data were processed

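The deposited ATAC and Sox4 files were peak lists with 1 line per peak. Per the submitters' processing notes, MACS2, STAR and deepTools were used, Sox4 reads also went through UMI-tools, and the builds were GRCm38 and mm10. The authors deposited each peak's fold enrichment as a ratio, its p-value and q-value as -log10 p and -log10 q, and its summit offset. A p threshold and a limit on peak number stand in the knockout lists' names but in no wildtype name. The knockout lists held 299829 and 266873 peaks, the wildtype lists 196536, 166874 and 196345, and the Sox4 lists 163020, 73346 and 39325, with depth unknown. A further list of Sox4 replicate 1 (417444 peaks) served as an alternative. The single-cell matrices gave no gene names and were not used here.

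Overlapping autosomal peaks were merged within a library, and each gene took its strongest peak within 1 kb of either end in a RefSeq gene table (GRCm38.p6). Ranks over 16249 genes were turned into normal scores and fitted with limma 3.58.1 (R 4.3.3), knockout against wildtype, with Benjamini-Hochberg adjustment over all genes, after a test on simulated data. Full values were given for the 6 highest and 6 lowest members by wildtype rank, up to 6 called and 4 largest differences per direction, members with Sox4 peaks in all 3 replicates, up to 8 with peaks in 2, and members without a peak. Genes of like rank had a mean wildtype rank within the central 80% of the members. Tables and intervals used pandas 2.3.3 and scipy 1.17.1. The members and lists were chosen with earlier results of these data known. One listed epithelium marker is not reported here. Rank by fold, windows of 0.5 and 2 kb, the strongest peaks, gene filters, starts, percentiles, a replicate block and each library left out were the alternatives.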

Additional observations from a re-analysis of the deposited data

How the results depend on the processing

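Ranking genes by fold in place of -log10 p moved the members called higher to 3, against 17, and those called lower to 4, against 2, and turned the median difference to -0.11, against 0.31. The difference of Hnrnpc turned to -0.46 by fold. Leaving out 1 library at a time gave 4 to 16 members higher and 0 to 3 lower (all genes 1.50% to 10.8% and 1.70% to 11.6%), lowest without knockout replicate 1, and a median difference of 0.28 to 0.33. The fit with a replicate block gave 15 higher and 1 lower (all genes 8.87% and 9.19%), with a median of 0.28, and it ended the calls of Rpl35 and Hnrnpm (limma adjusted p 0.062 and 0.0559). The labels tie no knockout library to a wildtype one. Deviations of same-numbered libraries correlated at 0.12 and 0.08. With 2 knockout libraries their deviations mirror each other, so the crossed pairs of replicates 1 and 2 gave -0.12 and -0.08. These values cannot decide whether same-numbered libraries share more than a number. With no filter on genes 1 member was lower (all genes 6.11%), and with the RefSeq starts added (chosen after the data were seen) 4 were (all genes 13.52%). Windows of 0.5 and 2 kb, the 50000 strongest peaks, genes with peaks in all 5 libraries, gene starts alone and percentiles kept the higher count between 14 and 18 (all genes 10.7% to 16.2%). On the 20000 strongest Sox4 peaks the members with a peak fell to 8 in replicate 1, 13 in replicate 2 and 8 in 2 or more replicates. The further list of replicate 1 gave 42 in replicate 1 and 12 in all 3 (all genes 60.9% and 5.71%). Gene starts alone gave 13 of 42 in 2 or more replicates (all genes 11.1%), and leaving out a Sox4 replicate left 10 to 13 members with peaks in both others (all genes 5.72% to 8.74%). The cause of these shifts was not tested. Depth was unknown for every library, and with 2 knockout libraries 1 library decides many calls.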
